A study of Mus musculus with 33 samples.

Results

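Oxidative phosphorylation subunits are the nuclear-encoded protein parts of the mitochondrial respiratory chain and of ATP synthase. The members were taken from the count table by symbol alone: genes whose symbol starts with Ndufa, Ndufb, Ndufc, Ndufs or Ndufv (Ndufaf excluded), Uqcr, Atp5, or Cox followed by a number from 4 to 8, and Sdha, Sdhb, Sdhc, Sdhd and Cyc1. This rule found 96 of the 17120 genes in the table. It uses no measured value, although the members were chosen with earlier results of these data known. Of these, 80 are subunit genes: 37 of complex I, 4 of complex II, 8 of complex III, 15 of complex IV and 16 of complex V. The other 16 carry a pseudogene name or annotation, and their reads cannot be separated with certainty from those of the parent genes. Ndufa4 and Ndufa4l2 were counted with complex I by their symbols, although the NDUFA4 protein is now placed in complex IV.

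Complex I (NADH dehydrogenase, the Nduf genes) and complex II (succinate dehydrogenase, the Sdh genes) pass electrons to ubiquinone, complex III (the Uqcr genes and Cyc1) passes them on to cytochrome c, and complex IV (cytochrome c oxidase, the Cox genes) reduces oxygen. Complexes I, III and IV pump protons, and complex V (ATP synthase, the Atp5 genes) makes ATP from the gradient. A few core subunits are made from mitochondrial DNA, whereas the members described here are nuclear genes, and several of them have tissue-restricted or low-oxygen isoforms such as Cox4i2, Cox7a1 and Ndufa4l2. Pluripotent cells rely strongly on glycolysis, and cartilage lies in tissue with little oxygen, so the levels of these genes along the route from stem cell to tendon or fibrocartilage are of general interest.

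The libraries were bulk mRNA profiles of cultures grown from mouse embryonic stem cells that carry the ScxGFP transgene, a reporter of the tendon and ligament transcription factor Scleraxis. Embryoid bodies labelled as paraxial mesoderm (PM, day 0 of induction) were compared with monolayers treated either with CD1530, which activates the retinoic acid receptor RARγ, or with AGN 193109 (AGN), an inverse agonist of all RARs. They were collected 0.25, 0.75, 1.5, 2.5 and 4 days after plating, written D0.25 to D4. Both arms also received TGFβ1, the hedgehog agonist SAG and FGF2, which are not listed for PM. There were 11 groups of 3 libraries, called biological replicates by the study, and 33 libraries in all.

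Some features limit these groups as a model. PM had been made with the BMP inhibitor LDN-193189, the WNT activator CHIR and a retinoid ligand, either AGN or all-trans retinoic acid, and the labels do not say which. The study reports almost no later ScxGFP induction after all-trans retinoic acid at this stage, and more after AGN. It describes the protocols used for these libraries as highly efficient. PM cells were in suspended bodies and all later cells in monolayer, so culture form, added factors and time cannot be told apart in any comparison with PM. No monolayer without a ligand was among the libraries, and the stem cell line behind each library is not given in the labels. The cultures were mixed, so fewer cells of a type and less RNA per cell cannot be told apart.

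Marker genes were checked against the labels. Pluripotency markers (5 of 5 in the table) summed to 2653 CPM (counts scaled to a common library size) in PM and to 233 CPM in CD1530 and 305 CPM in AGN at D4, while 6 tendon and matrix markers summed to 1709, 17486 and 20415 CPM. The early paraxial mesoderm genes Tbx6 and Msgn1 stood at 9.56 and 3.38 CPM in PM, and the 4 genes of that list summed to only 33 CPM there against 169 CPM in CD1530 at D2.5. Cartilage markers (6 genes) summed to 23.7 CPM in PM and to 245 CPM in CD1530 and 3200 CPM in AGN at D4. Striated muscle markers, of interest because some isoforms are muscle-rich, stayed at 10.3 to 36.2 CPM over the group means. Total counts per library ran from 17116084 to 38120841. The library of CD1530 D0.75 replicate 1 stood apart: the 80 subunit genes lay above the mean of the other replicates by a median of 0.30 on the log2 scale, 75 of 80 were above both, and genes under 1 kb of exon length as a whole were 0.27 higher and genes over 5 kb 0.18 lower. Subunit genes are short, with a median exon length of 1560 bases against 3849 for all genes. Calls between the ligands at D0.75 are therefore given with and without that library.

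Promoter sequences of 5 members are shown because many members moved in the same direction and the factors NRF1, the ETS factor GABPA and YY1 are known regulators of respiratory genes. Each stretch is taken from RefSeq on GRCm38.p6, is the longest run free of annotated exons within the 250 bases before the RefSeq transcription start, and is written 5′ to 3′ on the gene's strand. Capitals mark matches to the NRF1 motif (GCGC, then AT, then GCGC), to its core (GCGC, any base, T, then GCGC, on either strand, which includes the full motif) and to the ETS/GABPA motif (CCGGAAG). Cox6a1, a ubiquitous complex IV subunit, is shown for its NRF1 match, Uqcr11 of complex III for its ETS match, and Ndufs5 of complex I for a core match in a gene that ended higher at D4. Atp5b, the catalytic β subunit of ATP synthase and the most abundant member, and Cox7a1, the heart and muscle isoform that differed between ligands at several times, hold none of the motifs. The stretches are chr5:115348982-115349129 on the minus strand for Cox6a1, chr10:80406831-80407071 on the minus strand for Uqcr11, chr4:123718203-123718436 on the minus strand for Ndufs5, chr10:128083057-128083272 on the plus strand for Atp5b, and chr7:30183921-30184143 on the plus strand for Cox7a1.
Cox6a1: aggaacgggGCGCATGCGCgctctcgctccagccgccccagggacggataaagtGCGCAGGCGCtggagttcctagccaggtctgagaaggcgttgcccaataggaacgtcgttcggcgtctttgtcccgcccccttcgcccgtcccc
Uqcr11: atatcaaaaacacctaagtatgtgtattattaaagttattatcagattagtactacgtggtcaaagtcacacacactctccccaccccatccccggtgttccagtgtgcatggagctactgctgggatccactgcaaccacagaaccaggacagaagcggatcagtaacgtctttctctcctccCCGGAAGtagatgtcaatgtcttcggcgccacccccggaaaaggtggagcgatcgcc
Ndufs5: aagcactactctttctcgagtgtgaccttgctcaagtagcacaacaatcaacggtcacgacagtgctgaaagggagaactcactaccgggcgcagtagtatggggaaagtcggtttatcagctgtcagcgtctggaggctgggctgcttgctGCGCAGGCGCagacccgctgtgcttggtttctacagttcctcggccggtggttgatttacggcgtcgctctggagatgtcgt
Atp5b: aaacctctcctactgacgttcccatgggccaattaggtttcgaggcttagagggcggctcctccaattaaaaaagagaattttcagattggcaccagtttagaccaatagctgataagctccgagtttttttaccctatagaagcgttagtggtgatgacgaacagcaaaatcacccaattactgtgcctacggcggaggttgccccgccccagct
Cox7a1: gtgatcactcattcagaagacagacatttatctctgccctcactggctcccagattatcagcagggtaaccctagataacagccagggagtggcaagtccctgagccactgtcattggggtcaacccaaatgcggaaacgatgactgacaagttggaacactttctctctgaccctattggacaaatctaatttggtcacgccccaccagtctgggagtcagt

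A RefSeq window of 300 bases was matched for 66 of the 80 subunit genes, and the motifs were searched on both strands. The NRF1 motif was found in 4 of 66 windows (6.06%) against 0.971% of all 32851 RefSeq windows, and its core in 15 (22.7%) against 4.60%. Those 32851 windows were not limited to genes in the count table or, as those of the members were, to 1 per gene. The ETS/GABPA motif was found in 15 (22.7%) against 8.86%, and the YY1 motif (AAGATGGC) in 9 (13.6%) against 2.75%. At least 1 of the motifs was in 34 windows (51.5%) against 14.7%. The windows of the members also had more G and C, a median of 57.8% against 52.7%, and a match to letters is a description, not a shown binding site. Among the 39 windows of genes that were lower in CD1530 at D4 than in PM, 8 held the NRF1 core, 6 the ETS motif and 6 the YY1 motif. Among the 7 windows of genes that were higher, 3 held the core, 3 the ETS motif and 0 the YY1 motif. Both the core and the ETS motif were therefore present on the promoters of genes that moved in either direction.

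The transcripts of the members as a whole made up a smaller share of the mRNA after plating. The share was smaller still at D4, which in AGN rested on Atp5b. The 96 members summed to 9474, 10165 and 9628 CPM in the 3 PM libraries. At D0.25 the sum was 8153 ± 145 CPM in CD1530 and 8020 ± 75.7 CPM in AGN (SD, n = 3), and at D4 it was 7393 ± 109 and 7571 ± 128 CPM. All D0.25 and D4 libraries lay below the lowest PM library. The means correspond to 83.6% and 82.2% of PM at D0.25 and to 75.8% and 77.6% at D4. CPM values are relative, so they describe shares of the sequenced mRNA, not amounts per cell. Atp5b alone took 21.3 to 22.1% of the sum in PM and 14.3 to 15.1% at D4, and without it the sum at D4 was 82.3% of PM in CD1530 and 84.6% in AGN. Without Atp5b the AGN sum was no lower at D4 than at D0.25, while the CD1530 sum was lower.

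**Figure D1:**
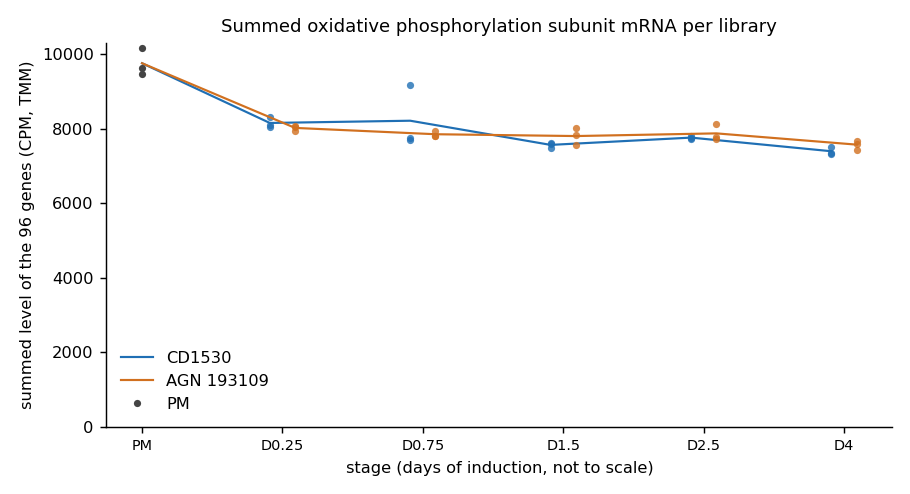
Summed TMM-normalised CPM of the 96 members (y axis) in each library by stage (x axis, days of induction, not to scale) for PM, CD1530 and AGN; points are libraries and lines join group means. The 3 PM libraries lie at 9474 CPM or above, and the D4 libraries of both arms lie between 7313 and 7681 CPM.

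The sums differed in size of change between complexes. At D4 the summed CPM of complex I stood at 87.1% of PM in CD1530 and 94.4% in AGN, that of complex II at 80.6% and 79.2%, that of complex III at 76.1% and 74.2%, and that of complex IV at 76.6% and 76.5%. Complex V stood lowest, at 66.9% and 67.3%, where Atp5b weighs most. These sums carry no test. Lists of other genes moved over the same steps: 12 proliferation genes summed to 3947 CPM in PM, 2630 and 2693 CPM at D0.25 and 1942 and 2417 CPM at D4, 5 endoderm markers to 45.0, 249 and 276 CPM in PM and at D0.25, and 5 endothelial markers to 96.8 to 103 CPM over the PM libraries and to 218 and 206 CPM at D0.25. Their part in the fall of the members was not tested.

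The step from PM to D0.25, over which culture form and added factors changed together, was the one at which the largest number of members fell. Against PM, 47 of 96 members fell and 1 rose in CD1530 at D0.25, where 67.8% of all genes tested were called, 33.3% lower and 34.5% higher. In AGN, 58 members fell and 2 rose, where 68.1% of all genes were called, 33.1% lower and 35.0% higher (edgeR quasi-likelihood test, Benjamini-Hochberg adjusted p under 0.05). The median log2 fold change of the 80 subunit genes was -0.19 in CD1530 and -0.25 in AGN, while the median over all genes was 0.00 in both. Every complex took part: in AGN, 24 of 37 complex I, 2 of 4 complex II, 7 of 8 complex III, 12 of 15 complex IV and 9 of 16 complex V genes fell. With a correction for exon length and GC content, 7 members were higher and 41 lower in CD1530, and AGN had 6 higher and 44 lower. Without PM replicate 2, in which 67 of 80 subunit genes lay above both other PM libraries, 40 members fell in CD1530 at D0.25.

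Genes of complexes III and IV were among the members that fell most from PM to D0.25. Cox6b2, the testis-rich isoform of a subunit that bridges the complex IV dimer, had 37.0, 37.6 and 37.1 CPM in PM, 21.9, 19.3 and 19.3 CPM in CD1530 at D0.25 and 22.9, 20.7 and 23.3 CPM in AGN. It fell by 0.89 ± 0.07 (log2, SE) in CD1530 and by 0.74 ± 0.07 in AGN. The groups did not overlap for this gene. Uqcr10, a small subunit of complex III, had 100, 113 and 106 CPM in PM, 69.7, 71.5 and 71.1 CPM in CD1530 and 68.7, 72.2 and 66.2 CPM in AGN. Cox7a1 fell from 6.95 to 7.75 CPM in PM to 4.75 to 5.34 CPM in CD1530 and 4.43 to 5.56 CPM in AGN. The exception was Cox4i2, the low-oxygen and lung isoform of cytochrome c oxidase subunit 4, which stood at 1.67, 1.13 and 1.45 CPM in PM and at 3.27, 3.07 and 3.15 CPM in CD1530 and 3.11, 2.64 and 4.23 CPM in AGN. Its rise was 1.15 ± 0.21 and 1.23 ± 0.21 on the log2 scale (edgeR, adjusted p = 9.1e-06 and 3.1e-06). The other member that rose, Uqcrh-ps2 in AGN, is a pseudogene of a complex III hinge protein.

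By D4 the members had separated into a large group that lay below PM and a smaller group that lay above it. Against PM, 50 of 96 members fell and 11 rose in CD1530, where 83.2% of all genes were called, 39.9% lower and 43.3% higher. In AGN 50 fell and 15 rose, where 82.0% were called, 40.4% lower and 41.6% higher. The median log2 fold change of the 80 subunit genes was -0.23 in CD1530 and -0.22 in AGN, against 0.04 and 0.00 over all genes. Most changes were small: 27 members in CD1530 and 20 in AGN were called with a log2 change of at least 0.5 in size. Of all genes, 65.7% and 63.8% were called with a change of that size. A change of at least 1 was called for 3 and 6 members. The correction for length and GC content moved the split to 34 higher against 42 lower in CD1530 and to 38 against 43 in AGN, and scaling by library size alone moved it to 7 against 64 and to 8 against 65. With the length and GC correction the median of the 80 subunit genes was -0.12 and -0.18 against 0.03 and 0.00 over all genes. With the 16 pseudogenes included the median was -0.01 and -0.04 under that correction, against -0.23 and -0.20 with the main scaling. Scaling by library size moved the median of all genes in AGN to -0.15, and relative to it the subunit genes lay 0.22 lower.

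**Figure D2:**
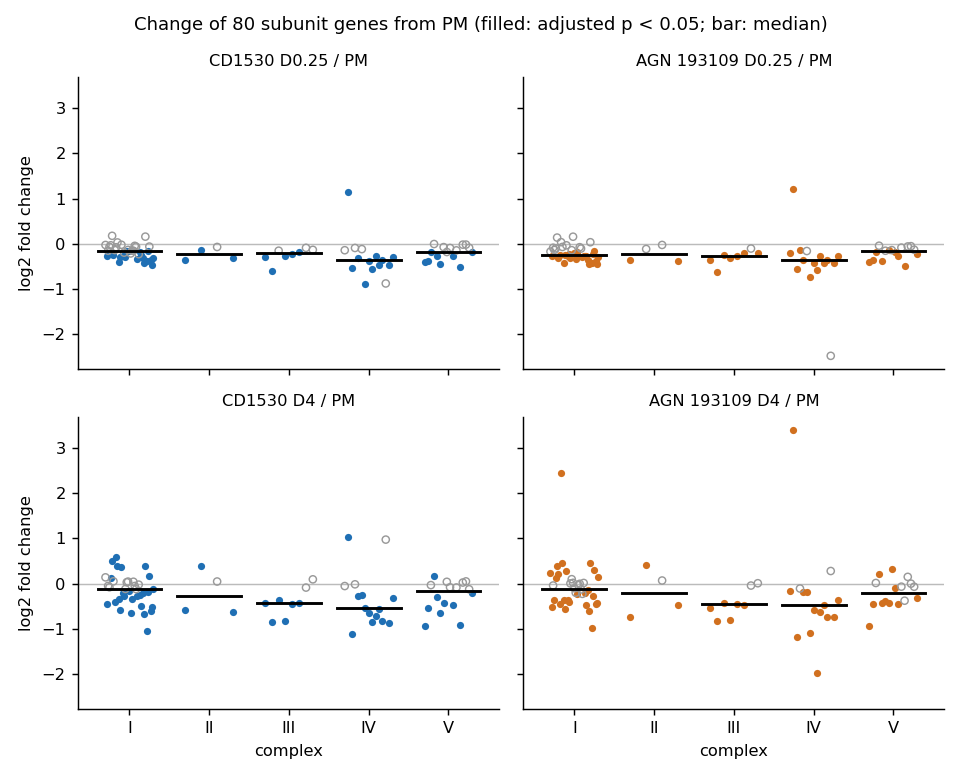
Log2 fold change against PM (y axis) of the 80 subunit genes by complex (x axis) in 4 panels, CD1530 and AGN at D0.25 and at D4; filled points have adjusted p under 0.05 and bars are medians. At D4 the medians of complexes III and IV lie at -0.43 and -0.53 in CD1530 and -0.46 and -0.46 in AGN, below those of complex I at -0.13 in both.

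In complex I the calls at D4 went in both directions. Of 37 genes, 19 fell and 7 rose in CD1530, and 16 fell and 10 rose in AGN, with a median log2 fold change of -0.13 in each. Over all genes, 39.9% fell and 43.3% rose in CD1530, and 40.4% fell and 41.6% rose in AGN. With the length and GC correction the calls were 14 higher against 15 lower in CD1530 and 15 against 15 in AGN, with medians of 0.00 and -0.03, so the direction of the complex I median in CD1530 rested on the scaling. Ndufs6, an accessory subunit of the electron-accepting arm, had 72.1, 77.2 and 70.2 CPM in PM, 35.7, 37.1 and 32.9 CPM in CD1530 at D4 and 38.4, 37.8 and 34.6 CPM in AGN. Its log2 fold changes were -1.05 ± 0.08 and -0.99 ± 0.08 (edgeR, adjusted p = 5.5e-15 and 4.3e-14), and its retrocopy Ndufs6b fell by 0.95 and 1.16. The 2 genes are near copies, so reads may be shared between them. Ndufs1, which carries iron-sulphur clusters of the electron path, had 111, 114 and 112 CPM in PM, 81.6, 77.5 and 79.4 CPM in CD1530 at D4 and 82.2, 83.2 and 76.8 CPM in AGN. Ndufv1, the NADH-binding core subunit, went from 133, 146 and 143 CPM to 92.4, 92.6 and 93.8 CPM and to 107, 101 and 98.7 CPM. Both core genes lay below PM in every D4 library.

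The complex I genes that rose were accessory subunits, apart from the core subunit Ndufs8 and the isoform Ndufa4l2. Ndufa5 had 27.2, 29.5 and 27.1 CPM in PM, 37.8, 36.2 and 36.2 CPM in CD1530 at D4 and 37.1, 36.9 and 41.0 CPM in AGN, and rose by 0.40 ± 0.07 and 0.46 ± 0.07 on the log2 scale. Ndufs5, whose promoter with a core match is printed above, had 18.7, 20 and 16.5 CPM in PM, 21.5, 25.2 and 25.8 CPM in CD1530 and 24.8, 25.2 and 26.0 CPM in AGN. Its pseudogene Ndufs5-ps rose as well, by 0.28 and 0.49. Ndufa8 had 60.3, 65.9 and 57.6 CPM in PM, 79.2, 78.1 and 78.4 CPM in CD1530 and 72.6, 72.4 and 76.8 CPM in AGN. Ndufa2 had 41.4, 48.5 and 42.0 CPM, then 62.7, 62.7 and 62.1 CPM and 58.3, 58.8 and 56.5 CPM. None of these 4 genes overlapped between PM and either D4 group. They were picked from the members that rose, and 83.2% and 82.0% of all genes were called in the same comparisons.

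Complex II showed 3 patterns among its 4 genes. Sdha, the flavoprotein that oxidises succinate, had 361, 354 and 348 CPM in PM, 239, 240 and 231 CPM in CD1530 at D4 and 221, 213 and 208 CPM in AGN. It fell by 0.58 ± 0.03 and 0.73 ± 0.03 (edgeR, adjusted p = 4.9e-20 and 3.2e-23). Sdhb, the iron-sulphur subunit, had 94.0, 95.4 and 94.9 CPM in PM and moved the other way, to 122, 130 and 123 CPM and to 127, 126 and 127 CPM. Its rise was 0.40 ± 0.05 and 0.42 ± 0.05 (adjusted p = 4.6e-09 and 2.0e-09, edgeR). The membrane anchor Sdhc had 93.8, 98.6 and 96.4 CPM in PM and 96.5, 103 and 99.1 CPM and 102, 99.1 and 102 CPM at D4, which did not pass the test (edgeR, adjusted p = 0.38 and 0.20). The other anchor, Sdhd, fell from 127, 137 and 133 CPM to 83.9, 87.9 and 83.9 CPM and to 91.2, 93.3 and 102 CPM. Sdhc had the smallest range over the 11 group means of all 80 subunit genes, 0.13 on the log2 scale.

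In complex III the calls at D4 were all downward, 6 of 8 genes in each arm, with medians of -0.43 and -0.46. Of all genes, 39.9% fell in CD1530 and 40.4% in AGN. With the length and GC correction 6 fell and 2 rose in each arm. Uqcr10 reached 56.3, 62.4 and 59.2 CPM in CD1530 and 58.8, 59.7 and 61.0 CPM in AGN at D4. Uqcrb, which binds ubiquinone, had 55.5, 60.6 and 59.2 CPM in PM, 32.5, 34.3 and 32.0 CPM in CD1530 and 36.1, 32.0 and 32.5 CPM in AGN. Their log2 fold changes lay between -0.80 and -0.84. Of the electron carriers of the complex, Cyc1 (cytochrome c1) fell by 0.44 and 0.53, and Uqcrfs1 (the Rieske iron-sulphur protein) by 0.42 and 0.47. The size of both rested on the scaling: with the length and GC correction Cyc1 was at -0.78 and -0.85 and Uqcrfs1 at -0.10 and -0.18. Uqcr11, whose promoter holds the ETS match, fell by 0.37 and 0.43.

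Complex IV had the lowest median in CD1530. Of 15 genes, 11 fell and 1 rose in CD1530 (median -0.53), and 12 fell and 1 rose in AGN (median -0.46). The shares of all genes that fell were 39.9% and 40.4%. With the length and GC correction the counts were 4 higher and 11 lower and 3 higher and 11 lower. Cox5a, a subunit common to all tissues, had 148, 172 and 156 CPM in PM, 114, 103 and 111 CPM in CD1530 at D0.25, and 72.1, 72.5 and 74.1 CPM at D4. In AGN it had 105, 109 and 109 CPM at D0.25 and 70.8, 70.0 and 68.5 CPM at D4. Its log2 fold change from PM to D4 was -1.12 ± 0.06 in CD1530 and -1.18 ± 0.06 in AGN (edgeR, adjusted p = 9.7e-20 and 2.7e-20). It was the member with the largest fall in CD1530 with the main scaling, while with the length and GC correction its change was -0.85 and that of Atp5b -1.04. Cox7b went from 107, 121 and 111 CPM to 63.1, 65.2 and 62.7 CPM and to 67.6, 67.1 and 70.2 CPM, and Cox7a2 from 109, 117 and 111 CPM to 68.6, 70.1 and 66.1 CPM and to 74.1, 70.9 and 74.3 CPM. Both are small subunits on the outside of the catalytic core. Cox6a1, with the NRF1 match, changed less, from 202, 215 and 203 CPM to 170, 173 and 172 CPM and to 184, 176 and 187 CPM. Cox8a fell by 0.32 and 0.35, and Cox4i1 had -0.05 and -0.16 as its log2 fold changes, of which only the latter passed the test (edgeR).

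In complex V the β subunit had the largest change from PM to D4 in each arm. Atp5b had 2091, 2166 and 2105 CPM in PM, 1636, 1611 and 1613 CPM in CD1530 at D0.25, 1457, 1436 and 1439 CPM at D2.5 and 1101, 1127 and 1110 CPM at D4. In AGN it had 1597, 1620 and 1604 CPM, then 1472, 1483 and 1430 CPM, and then 1131, 1092 and 1102 CPM. It went down from PM to D0.25 and again between D2.5 and D4, and at D4 stood at 0.525 and 0.523 of PM (log2 fold change -0.93 ± 0.03 and -0.94 ± 0.03, edgeR adjusted p = 4.9e-29 and 4.3e-29). Of the 16 genes, 8 fell and 1 rose in CD1530 and 8 fell and 2 rose in AGN, with medians of -0.16 and -0.21. The shares of all genes that fell were 39.9% and 40.4%, and those that rose 43.3% and 41.6%. With the length and GC correction 5 rose and 8 fell in each arm. Of the 3 genes for the c ring, which turns as protons pass, Atp5g3 was the most abundant per kilobase and fell by 0.43 in each arm, from 316, 350 and 334 CPM to 242, 253 and 249 CPM and to 243, 242 and 257 CPM. Atp5g1 fell by 0.31 and 0.43 and Atp5g2 by 0.65 and 0.38. Atp5e, the ε subunit of the central stalk, rose in both arms, by 0.17 and 0.21.

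**Figure D3:**
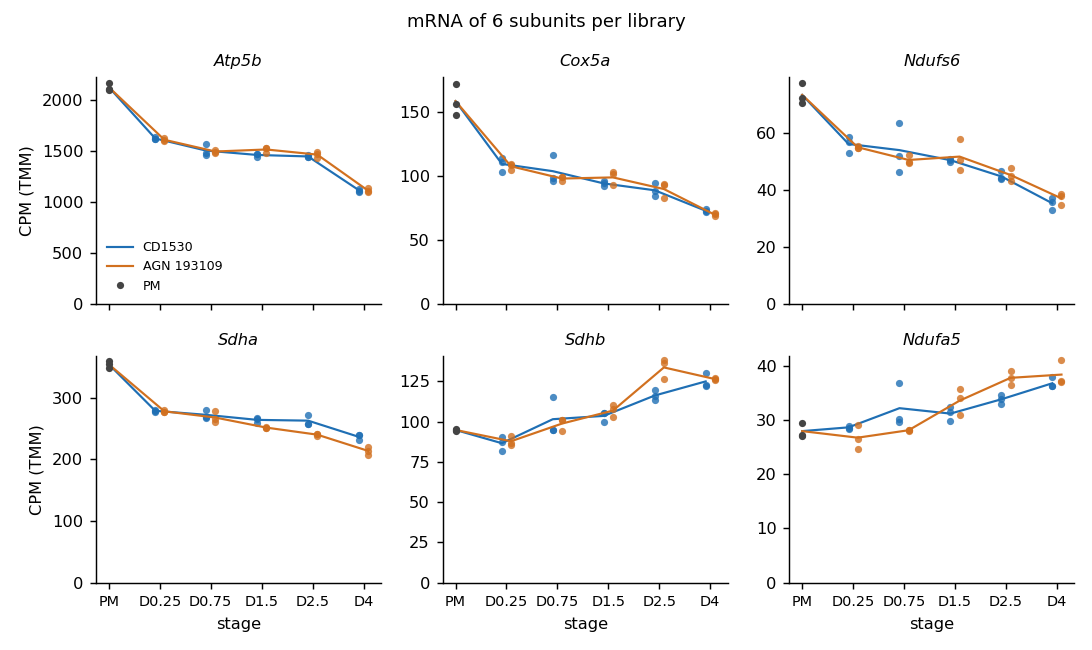
CPM per library (y axis) by stage (x axis, days of induction, not to scale) for Atp5b, Cox5a, Ndufs6, Sdha, Sdhb and Ndufa5 in PM, CD1530 and AGN; points are libraries and lines join group means. Atp5b, Cox5a, Ndufs6 and Sdha end below every PM library, whereas Sdhb and Ndufa5 end above every PM library.

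Between D0.25 and D2.5 the calls were more balanced. In CD1530, 11 members rose and 25 fell, where 62.9% of all genes were called, 33.4% higher and 29.6% lower. In AGN 18 rose and 19 fell, where 60.9% were called, 30.7% higher and 30.2% lower. The split depended on the scaling, with 7 higher against 37 lower in CD1530 and 10 against 34 in AGN under library size alone. Under the length and GC correction it was 24 against 21 and 29 against 19. Sdhb made its rise here, from 90.5, 87.3 and 81.9 CPM to 113, 120 and 116 CPM in CD1530 and from 85.6, 86.6 and 91.0 CPM to 127, 138 and 136 CPM in AGN. The log2 fold changes were 0.43 and 0.60 (edgeR, adjusted p = 2.7e-09 and 1.8e-13). Ndufa5 rose by 0.24 and 0.50, and Cox4i2 fell back from its D0.25 level to 2.01, 1.49 and 1.83 CPM in CD1530 and 2.41, 1.43 and 1.64 CPM in AGN.

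From D2.5 to D4, 11 members rose and 16 fell in CD1530, where 57.3% of all genes were called, 27.4% higher and 29.9% lower. In AGN 13 rose and 20 fell, where 59.4% were called, 29.9% higher and 29.5% lower. Under library size alone the splits were 4 against 30 in CD1530 and 8 against 34 in AGN, under the length and GC correction 24 against 13 and 28 against 17, and with the size factors of DESeq2 14 against 15 and 16 against 15. Without CD1530 D2.5 replicate 2, 7 members rose in CD1530. Among the called members, Atp5b fell by 0.38 and 0.40, and Cyc1 by 0.33 and 0.34. The largest rises were those of Ndufa4l2 in both arms and Cox4i2 in AGN, which are described with the isoforms.

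Between the ligands at matched times the subunits differed little at first. At D0.25, 0 of 96 members were called, where 1.92% of all genes were (edgeR quasi-likelihood test; DESeq2 also called 0, and 2 members had an unadjusted p under 0.05). At D0.75, 7 members were higher in CD1530 and 0 lower, where 7.94% of all genes were called higher and 10.0% lower. Without CD1530 D0.75 replicate 1, 2 were higher (Cox7a1 and Cox4i2) and 2 lower (Ndufb3 and Cox6a1), so the calls of Cyc1, Ndufa4l2, Ndufa5, Ndufs8 and Uqcr10 at D0.75 were lost without that library. The count of higher members was 21 without CD1530 replicate 2 or 3, 3 without AGN replicate 2, and 0 when only the D0.75 libraries were fitted. That last fit called 1236 of all genes, against 3076 with all libraries. Cox7a1 had 9.64, 6.32 and 5.42 CPM in CD1530 and 4.10, 4.03 and 4.58 CPM in AGN, with a log2 difference of 0.75 ± 0.15 with all libraries (edgeR, adjusted p = 2.2e-04) and 0.47 without replicate 1 (adjusted p = 0.016). Cox4i2 had 2.66, 3.05 and 2.22 CPM against 1.63, 1.46 and 1.73 CPM, with 0.72 and 0.71.

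At later times the number of called members grew as it did for all genes. At D1.5, 2 members were higher in CD1530 and 5 lower, where 26.9% of all genes were called, 15.2% higher and 11.8% lower. At D2.5, 5 were higher and 7 lower, where 40.0% were called, 20.4% and 19.6%. At D4, 7 were higher and 10 lower, where 46.6% were called, 22.7% and 24.0%. The members called made up a smaller share than that of all genes at each of these times. Single libraries set some of these counts: 1 was lower at D1.5 without CD1530 D1.5 replicate 3, 2 were higher at D2.5 without CD1530 D2.5 replicate 3, 2 were lower at D2.5 without AGN D2.5 replicate 2, and 6 were lower at D4 without CD1530 D4 replicate 1. Fits of only the compared libraries gave 1 higher against 16 lower at D1.5 and 8 against 18 at D2.5. Over all genes these fits called 5462 and 7520, against 4611 and 6845 with all libraries. The median log2 difference of the 80 subunit genes at D4 was -0.02, as was that of all genes. Under library size alone the splits were 8 higher against 4 lower at D2.5 and 9 against 5 at D4. With the length and GC correction they were 5 against 7 at D1.5, 10 against 7 at D2.5 and 13 against 12 at D4, and with the size factors of DESeq2 2 against 10 at D1.5. Over all genes that correction called 5051, 7433 and 8437 at D1.5, D2.5 and D4, and the size factors 4637 at D1.5. At D4, 5 members were called with a log2 difference of at least 0.5 in size, where 21.0% of all genes were. The other 12 of the 17 called differences were under 0.5, among them Sdha (0.15), Sdhd (-0.17), Ndufv1 (-0.14), Ndufv3 (-0.26), Atp5h (-0.27) and Ndufa12 (0.29).

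**Figure D4:**
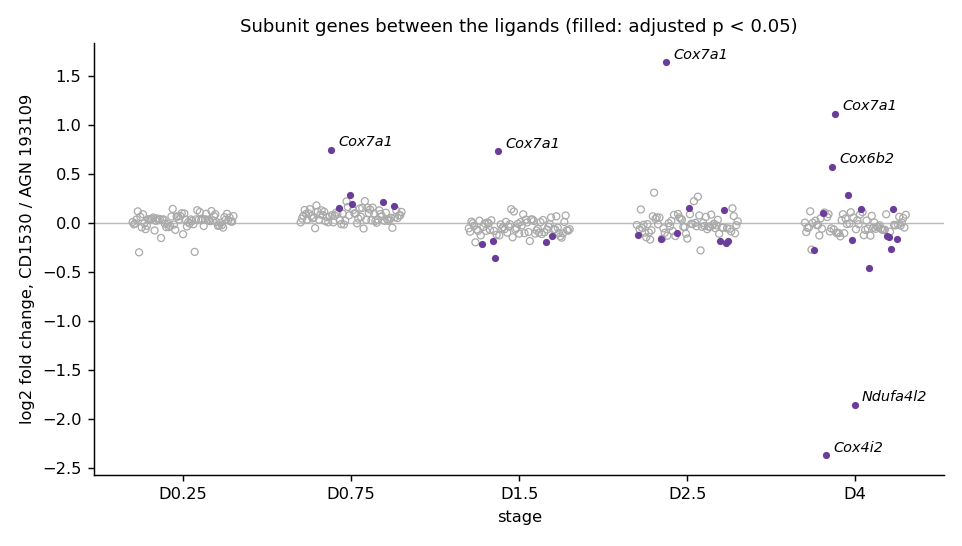
Log2 fold change of CD1530 over AGN (y axis) at the 5 time points from D0.25 to D4 (x axis) for the subunit genes that averaged 50 counts or more over the libraries compared; filled points have adjusted p under 0.05, and genes at 0.5 or more in size are named. Nearly all genes lie near 0, and at D4 Cox4i2 and Ndufa4l2 lie at -2.36 and -1.85 and Cox7a1 at 1.11.

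The largest differences between ligands at D4 were those of isoform genes. Ndufa4l2, a low-oxygen paralogue of Ndufa4 and a target of hypoxia-inducible factor, had 38.1, 39.9 and 38.1 CPM in PM and stayed between 28.0 and 46.4 CPM in every library up to D2.5. At D4 it had 57.1, 62.7 and 55.8 CPM in CD1530 and 225, 196 and 212 CPM in AGN. The AGN libraries were thus 3.61-fold higher on average, with a log2 difference (CD1530 over AGN) of -1.85 ± 0.07 (edgeR, adjusted p = 7.9e-21). Against PM it rose 1.51-fold in CD1530 and 5.46-fold in AGN. Ndufa4 itself had 98.0, 108 and 101 CPM against 96.9, 94.5 and 103 CPM at D4, which overlapped. Per kilobase of exon, Ndufa4l2 made up 26.7 ± 1.03% of the pair in PM, 41.9 ± 0.71% in CD1530 at D4 and 73.1 ± 1.30% in AGN (SD, n = 3).

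Cox4i2 followed Ndufa4l2 at D4 in AGN. It had 15.2, 14.0 and 15.7 CPM there and 3.28, 2.37 and 3.04 CPM in CD1530, a 5.15-fold difference (log2 CD1530 over AGN -2.36 ± 0.16, edgeR adjusted p = 5.6e-16). The groups were well apart. From PM to D4 it rose 10.5-fold in AGN and 2.04-fold in CD1530. Its common counterpart Cox4i1 had 320, 332 and 327 CPM in CD1530 and 296, 294 and 317 CPM in AGN at D4, so that Cox4i2 remained the minor form, at 1.72 ± 0.30% and 8.87 ± 0.30% of the pair per kilobase. Cartilage markers summed to 245 CPM in CD1530 and 3200 CPM in AGN at D4. At D2.5 they summed to 436 and 1201 CPM, when neither Ndufa4l2 (-0.11) nor Cox4i2 (-0.12) was called between ligands, and in CD1530 the sum was lower at D4 than at D2.5 while both genes rose. The part of cartilage cells in the result was not tested.

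Cox4i2 had differed the other way at D0.75, where it was higher in CD1530, and was not called between ligands at D1.5 or D2.5.

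Cox7a1, the heart and muscle isoform of subunit 7a, was higher in CD1530 from D0.75 on. At D1.5 it had 6.10, 6.91 and 5.68 CPM in CD1530 and 4.08, 4.09 and 3.06 CPM in AGN, at D2.5 6.70, 6.49 and 6.19 CPM against 2.22, 2.29 and 1.59 CPM, and at D4 4.09, 3.69 and 4.33 CPM against 1.63, 2.11 and 1.84 CPM. The groups did not overlap at any time from D0.75 on. The log2 difference was 0.73 ± 0.16, 1.64 ± 0.17 and 1.11 ± 0.21 (edgeR, adjusted p = 3.6e-04, 1.9e-10 and 1.8e-05). Its share of Cox7a1 plus Cox7a2 per kilobase was 10.3% in PM, 13.3 ± 0.69% and 4.23 ± 0.76% in CD1530 and AGN at D2.5 and 9.46 ± 0.93% and 4.30 ± 0.64% at D4. Of the 8 striated muscle markers 7 were in the table, and they summed to 10.8 CPM in CD1530 and 15.8 CPM in AGN at D2.5. At D4 5 of them were lower in CD1530 than in AGN and 0 higher, where 24.0% of all genes were called lower and 22.7% higher. The part of muscle cells in the Cox7a1 difference was not tested.

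Cox6b2 crossed over. It was lower in CD1530 than in AGN at D1.5, with 17.1, 16.9 and 16.2 CPM against 22.0, 19.6 and 22.8 CPM (log2 -0.36 ± 0.08, edgeR adjusted p = 3.8e-04). At D4 it was higher, with 25.2, 24.8 and 27.5 CPM against 17.8, 18.8 and 15.4 CPM (0.57 ± 0.08, adjusted p = 7.6e-08, edgeR). Between D2.5 and D4 it rose by 0.79 in CD1530, whereas the change in AGN, 0.17, did not pass the test. Its counterpart Cox6b1 had 117, 129 and 126 CPM and 123, 127 and 135 CPM at D4. Cox7b2, a testis-rich isoform, was called higher in CD1530 at D1.5 and D2.5, but at 0.894, 1.12 and 1.41 CPM against 0.433, 0.611 and 0.424 CPM at D2.5 it rested on a mean of 6.48 counts per library over the series.

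**Figure D5:**
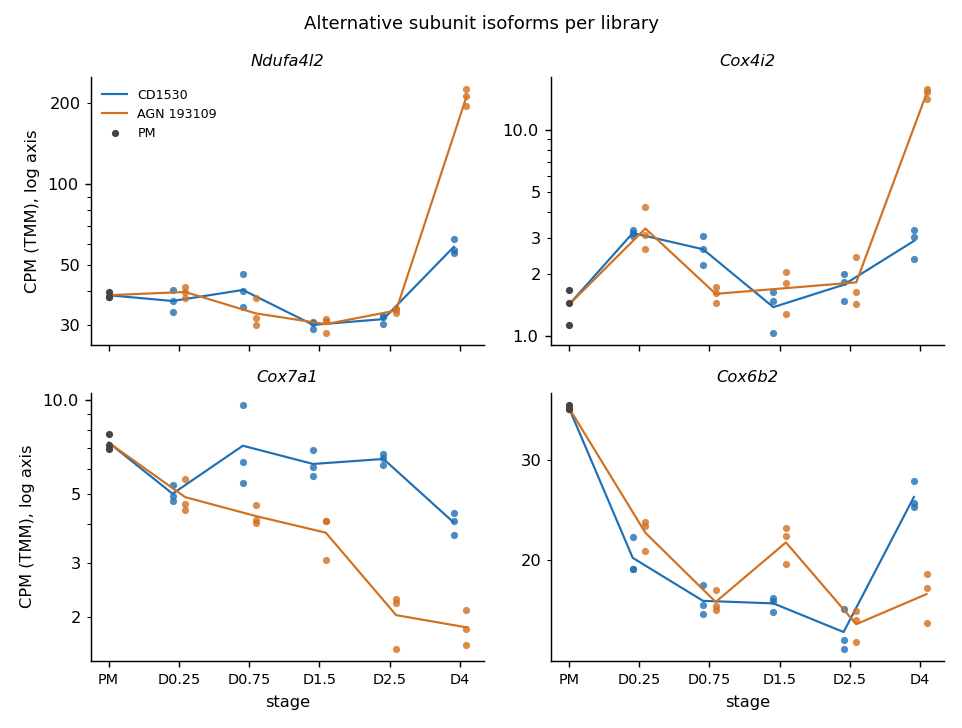
CPM per library (y axis, log scale) by stage (x axis, days of induction, not to scale) for Ndufa4l2, Cox4i2, Cox7a1 and Cox6b2 in PM, CD1530 and AGN; points are libraries and lines join group means. At D4 Ndufa4l2 and Cox4i2 lie higher in AGN and Cox7a1 and Cox6b2 higher in CD1530, with no overlap in any of the 4.

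Of the 4 complex II genes, Sdha, Sdhb and Sdhd differed slightly between the ligands at D2.5, where 40.0% of all genes were called. Sdhc did not pass the test then (log2 -0.05, edgeR adjusted p = 0.45). At D2.5 Sdha had 258, 258 and 273 CPM in CD1530 and 241, 238 and 242 CPM in AGN (0.13 ± 0.03), and Sdhb had 113, 120 and 116 CPM against 127, 138 and 136 CPM (-0.20 ± 0.05). At D4 Sdha was still higher in CD1530 (0.15 ± 0.03, edgeR adjusted p = 2.6e-04), while Sdhb, at 122, 130 and 123 CPM against 127, 126 and 127 CPM, no longer passed the test (edgeR, adjusted p = 0.82). Sdhd was lower in CD1530 at both times, by 0.18 and 0.17.

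Whether the ligand difference changed with time was tested directly. The F test of the interaction over the 5 time points called 17 of 96 members (17.7%), where 48.8% of all genes were called (edgeR). The count was 30 without CD1530 D0.75 replicate 2, 28 without replicate 3 and 12 without AGN D0.75 replicate 2. Leaving out single libraries gave counts from 12 to 30. The test includes CD1530 D0.75 replicate 1, the library that stood apart, so the count and some of the calls may rest on it. The smallest adjusted p were those of Ndufa4l2 (2.9e-17), Cox4i2 (2.8e-12), Cox6b2 (6.9e-08) and Cox7a1 (8.0e-06). The change from D2.5 to D4 differed between arms for 4 members, 2 in each direction, where 26.8% of all genes were called, 12.7% with a positive and 14.1% with a negative term. The interaction was -2.25 on the log2 scale for Cox4i2, -1.75 for Ndufa4l2, 0.63 for Cox6b2 and 0.15 for Ndufa10. Over 24 fits with different settings or a library left out, Ndufa10 was not called in 13. Cox4i2, Ndufa4l2 and Cox6b2 were called in all of them.

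Across the 11 groups, 54 of the 80 subunit genes (67.5%) had their highest mean in PM, against 33.2% of the 13687 genes that averaged 50 counts or more. AGN at D4 held the highest mean of 17, and CD1530 at D4 that of 4. The lowest mean fell in CD1530 at D4 for 17 genes, in CD1530 at D1.5 for 16 and in AGN at D4 for 14. Per kilobase of exon the most abundant members were Atp5b (353 CPM per kb), Cox6a1 (251) and Cox8a (246). The lowest were Atp5l (0.401), Cox7b2 (0.599) and Ndufb2 (0.627), all at low counts. Reads that match processed copies can be lost or shared in counting, and how such reads were counted is not given in the sources used here. Cox4i2, Ndufa4l2 and Cox7a1 ranged most over the group means, by 3.34, 2.81 and 1.92 on the log2 scale among genes with at least 50 counts. Sdhc, Ndufa11 and Ndufb7 ranged least, by 0.13, 0.15 and 0.17. The genes outside the members whose group means were most like the members' mean were Gm5566, Dazap1 and Snx3, with Pearson's r of 0.94, 0.92 and 0.92 over 11 groups that share PM and the passage of time, given as a description.

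Other genes of mitochondrial energy metabolism were counted beside the members. Of 80 mitochondrial ribosomal protein genes, 62 fell and 3 rose in CD1530 from PM to D4 and 59 fell and 2 rose in AGN, with medians of -0.44 and -0.48. Of 16 genes for the tricarboxylic acid cycle, which feeds electrons to complexes I and II, 12 fell and 1 rose in CD1530 and 13 fell and 1 rose in AGN. Of 18 glycolysis genes, 11 fell and 4 rose and 9 fell and 5 rose. Of 45 assembly factors, which build the complexes without being part of them, 24 fell and 9 rose in CD1530 and 19 fell and 11 rose in AGN, where the length and GC correction gave 15 and 15. Over all genes, 39.9% fell and 43.3% rose in CD1530 and 40.4% and 41.6% in AGN, against which the shares of glycolysis genes and assembly factors that fell in AGN stand apart least.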

How the data were processed

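Bulk mRNA was sequenced as paired reads on a shared flow cell lane. Per the labels and methods, the authors aligned reads to GRCm38 with STAR and deposited raw read counts per gene from featureCounts; the annotation release, strand setting and treatment of reads with several matches are not given in the sources used here. The members and gene lists were chosen with earlier results of these data known. The authors' table holds 17120 genes in 33 libraries of 17116084 to 38120841 counts (median 19899242), which limits precision for members with few counts.

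Counts were TMM-normalised and tested with edgeR 4.0.16 (R 4.3.3), robust quasi-likelihood F test, all 33 libraries with 11 group means and no covariate, and p-values were Benjamini-Hochberg adjusted over all 17120 genes. The filter on low counts removed 0 genes. A gene was called at adjusted p under 0.05. The procedure was tested on simulated counts. Contrasts were CD1530 against AGN at 5 times, steps within each arm, and interactions. No pair of same-group libraries was identical (33 pairs, lowest chi-square per gene 1.59), and the biological coefficient of variation was 4.68%. The p-values weigh differences between groups against the spread between these replicate cultures, estimated from all 33 libraries. Levels are CPM, per kilobase of summed exons where genes are compared. Named members were those with the 3 largest called changes in each direction per contrast (mean of at least 50 counts), the isoform genes with their counterparts, and Sdha to Sdhd, Cyc1, Ndufs1, Ndufv1, Uqcrfs1, Cox5a and Atp5b. Others named were chosen after their values were seen: Uqcrb, Uqcr11, Ndufs5 and Atp5e among them. Alternatives were DESeq2 1.42.0, its size factors, library size alone, no filter, a 1 CPM filter, a likelihood-ratio test, a replicate block, a correction for exon length and GC content, only the compared groups, and each library left out. Counts without pseudogenes and counts past a log2 change of 0.5 were added after seeing the data.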

Additional observations from a re-analysis of the deposited data

Results flagged for a closer look

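Results were picked out for a closer look where a test showed that the difference between CD1530 and AGN changed with time. The F test of the interaction over the 5 time points called 17 of the 96 members (edgeR quasi-likelihood test, Benjamini-Hochberg adjusted p under 0.05), below the 48.8% of all genes called. These were Ndufa4l2, Cox4i2, Cox6b2, Cox7a1, Ndufs8, Ndufa5, Ndufv1, Ndufb4, Ndufa9, Uqcr10, Sdhd, Sdha, Ndufv3, Ndufs5-ps, Ndufa3, Atp5h and Atp5g3. Without AGN D0.75 replicate 2 the count was 12, and without CD1530 D0.75 replicate 2 it was 30. The test includes CD1530 D0.75 replicate 1, the library that stood apart. Of the members listed, Ndufa4l2, Ndufa5, Ndufs8 and Uqcr10 had D0.75 calls that were lost without it.

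For the change from D2.5 to D4, the difference between arms (CD1530 minus AGN, log2) was -2.25 for Cox4i2, -1.75 for Ndufa4l2, 0.63 for Cox6b2 and 0.15 for Ndufa10. The call of Ndufa10 was lost in 13 of 24 fits with different settings or a library left out. Cox4i2 and Ndufa4l2 rose in both arms, and more in AGN. Cox6b2 rose in CD1530 and did not pass the test in AGN. No group of 3 libraries was tested for outlying values.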

How the results depend on the processing

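Counts are of members called higher and lower. Size factors of DESeq2 gave 10 lower at D1.5 between ligands and 1 higher in the step interaction, and an AGN D0.25 sum of 81.0% of PM. DESeq2 gave 1 and 9 at D1.5 and 1 higher in the step interaction. The likelihood-ratio test gave 2 higher in CD1530 at D0.25 against PM and 1 higher in the step interaction. Library size alone gave 8 lower at D1.5, 8 and 4 at D2.5 and 5 lower at D4 between ligands, 3 higher in CD1530 at D0.25 and 7 at D4 against PM, 8 higher in AGN at D4, 7 higher in CD1530 and 10 and 34 in AGN from D0.25 to D2.5, 4 and 30 and 8 and 34 from D2.5 to D4, and sums of 86.9%, 85.1%, 70.1% and 70.0% of PM. The length and GC correction gave 5, 10 and 13 higher at D1.5, D2.5 and D4 between ligands, 7 and 6 higher at D0.25 and 34 and 38 at D4 against PM, 24 and 29 from D0.25 to D2.5, 24 and 28 from D2.5 to D4, and 5 and 4 in the step interaction. Of the 50 members lower at D4 than in PM, 39 in CD1530 and 41 in AGN stayed lower under it, and 4 and 4 were called higher. With the replicate block added to it the counts were the same but for 8 lower at D1.5. Fits of only the compared groups gave 0 higher at D0.75, 1 and 16 at D1.5, 8 and 18 at D2.5, 13 higher at D4, 2 higher in CD1530 at D0.25 against PM, 24 higher in CD1530 from D2.5 to D4 and 12 higher in the step interaction. Over all genes those fits called 1236, 5462 and 7520 at D0.75, D1.5 and D2.5, against 3076, 4611 and 6845 in the main fit. Without pseudogenes 1 member was higher in AGN at D0.25. Without Atp5b the sums were 85.6%, 84.0%, 82.3% and 84.6% of PM. The causes were not tested beyond what each setting changes.

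The replicate block alone gave 1 and 46 in CD1530 and 2 and 59 in AGN at D0.25 against PM, 10 and 49 and 15 and 50 at D4, and 15 members in the interaction over time. The numbers do not pair the libraries: the 165 pairs of libraries with the same number in different groups had a median correlation of -0.00004, and 12 of 33 libraries were closest to their own number.

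Leaving out 1 library gave these ranges, higher then lower. Between ligands they were 0 to 0 and 0 to 0 at D0.25, 2 to 21 and 0 to 2 at D0.75, 1 to 2 and 1 to 9 at D1.5, 2 to 9 and 2 to 6 at D2.5, and 5 to 6 and 6 to 9 at D4. In CD1530 they were 1 to 3 and 40 to 51 at D0.25 against PM, 8 to 10 and 20 to 24 from D0.25 to D2.5, 7 to 10 and 14 to 15 from D2.5 to D4, and 8 to 12 and 45 to 52 at D4 against PM. In AGN they were 1 to 2 and 50 to 62, 15 to 18 and 15 to 22, 11 to 17 and 15 to 18, and 12 to 15 and 46 to 52. The step interaction gave 1 to 3 and 2 to 3, the interaction over time 12 to 30, and the sums 82.4 to 85.4%, 81.0 to 84.0%, 74.7 to 77.4% and 76.5 to 79.3% of PM. Libraries that decided counts were CD1530 D0.75 replicate 1 (2 higher without it) and replicates 2 and 3 (21 without either), AGN D0.75 replicate 2 (3 without it), CD1530 D1.5 replicate 3 (1 lower at D1.5), CD1530 D2.5 replicate 3 (2 higher at D2.5) and replicate 2 (7 higher from D2.5 to D4), AGN D2.5 replicate 2 (2 lower at D2.5) and CD1530 D4 replicate 1 (6 lower at D4).

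Of the named members' values, 1382 of 1442 under other settings and 759 of 816 without a library kept direction and side of the threshold. The reversed log2 values between ligands at D4, all small, were Atp5g3 -0.016 (size factors of DESeq2, and DESeq2), Atp5b -0.013 (the same settings, and length and GC without and with the block), and Sdhb 0.020, Sdhc 0.015 and Ndufs1 0.016 (library size). Against PM at D4 they were Sdhc -0.065 and -0.080 (library size, CD1530 and AGN), -0.0021 for Sdhc, CD1530 D4 against PM (compared groups), and, with length and GC without and with the block, Cox6b1 0.21 in both arms and Ndufa4 0.065 in CD1530. Without 1 library they ran from -0.013 to 0.034 for Atp5g3, -0.0047 to 0.021 for Atp5b, -0.057 to 0.00057 for Ndufs1, -0.0030 to 0.061 for Cox8a, and from -0.12 to 0.93 for Cox7b2 in AGN against PM. Members under about 100 counts are limited by depth.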

Other observations

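The 13 subunits made from mitochondrial DNA, which belong to complexes I, III, IV and V, were measured beside the nuclear members. At D0.25 all 13 fell against PM in both arms, where 33.3% of all genes fell in CD1530 and 33.1% in AGN, with median log2 fold changes of -0.55 in CD1530 and -0.53 in AGN (edgeR). Their summed level varied more within PM than later, with 9759 CPM in the lowest and 14711 CPM in the highest PM library, and was 11020 ± 587 CPM in CD1530 and 8805 ± 496 CPM in AGN at D4 (SD, n = 3). Between ligands, 6 of 13 were lower in CD1530 at D2.5 and 0 higher, where 19.6% of all genes were lower, and 8 of 13 were higher at D4 and 0 lower, where 22.7% were higher. Among these, mt-Cytb had a mean of 1727 CPM in CD1530 and 1212 CPM in AGN at D4 (0.51 on the log2 scale, edgeR adjusted p = 3.7e-04), and mt-Nd1 had 1393 and 1072 CPM. The median difference of the 80 nuclear subunit genes at D4 was -0.02. From PM to D4, 3 of the 13 fell and 1 rose in CD1530 and 10 fell and 0 rose in AGN, but with the correction for length and GC content 11 rose and 0 fell in CD1530 and 7 rose and 0 fell in AGN, so this direction flips with the scaling.

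Of 19 regulators of mitochondrial biogenesis, 10 fell in each arm from PM to D4, and 6 rose in CD1530 and 4 in AGN (edgeR), where over all genes 39.9% fell and 43.3% rose in CD1530 and 40.4% and 41.6% in AGN. Tfam, which packages and transcribes mitochondrial DNA, stood at a mean of 83.2 CPM in PM, 42.9 CPM in CD1530 and 40.0 CPM in AGN at D4. Nrf1 stood at 81.8, 53.8 and 58.7 CPM and Gabpa at 123, 87.1 and 89.0 CPM. Esrra, an orphan receptor that acts on respiratory genes, was higher in CD1530 than in AGN at D4, with 43.5 and 27.6 CPM (0.66 on the log2 scale, edgeR adjusted p = 2.6e-11), while its coactivator Ppargc1a was lower, with 1.98 and 5.56 CPM (-1.48, edgeR adjusted p = 4.4e-06).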
